A study of Mus musculus with 12 samples.

Results

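Genes that make, carry, activate, inactivate and sense vitamin D were followed in the livers of adult male mice whose mothers had or had not been deficient in vitamin D. The 10 were chosen by name and by role from the 52636 genes counted, with earlier results of these data known. They are Dhcr7, Cyp2r1, Cyp27b1 and Cyp24a1 (metabolism), Gc, Lrp2 and Cubn (transport and uptake), and Vdr, Rxra and Pdia3 (receptors and their partner). The mice were C57Bl/6J males of the F1 generation, and the left lateral lobe of the liver was taken at 16 weeks of age. VDD-F1 mice (n = 6) came from dams fed a vitamin D deficient diet, with calcium gluconate, before mating and through pregnancy. VDS-F1 mice (n = 6) came from dams fed a vitamin D sufficient diet. All dams received the sufficient diet once they had delivered, and all pups were weaned onto it, so that the groups differ by label only in the diet of the dam before birth. The paper names as a limit that pups of deficient dams stayed short of vitamin D for a time after birth. It reports that their serum level was normal before the age at which the livers were taken. Each library was made from 1 mouse, with no pooling, and the number of dams behind each group was not used here. The diet was given to the dams, but the tests took each mouse as independent, so shared litters were not accounted for.

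Vitamin D is made in the skin from 7-dehydrocholesterol, the sterol that DHCR7 otherwise turns into cholesterol. In the liver it is hydroxylated to calcidiol, chiefly by CYP2R1, and the product is carried in blood by the vitamin D binding protein, which hepatocytes secrete from the Gc gene. In the kidney the receptors megalin (Lrp2) and cubilin (Cubn) take the bound form up from the filtrate, CYP27B1 makes the active hormone calcitriol and CYP24A1 breaks it down. Calcitriol acts through the vitamin D receptor (Vdr), which binds DNA together with a retinoid X receptor such as that of Rxra. Pdia3 encodes a protein disulfide isomerase of the endoplasmic reticulum, which has also been described as a membrane binding protein for calcitriol. Hepatocytes are known to hold little vitamin D receptor, which in the liver lies mainly in other cells.

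Each library held between 25897868 and 36403413 fragments, of which 14275793 to 20815066 were counted on genes. A count of 3, the limit that a count of 0 allows, stood for 0.144 to 0.210 counts per 1000000 (CPM) in a single library, and intervals and limits of this kind cover counting error only. The livers were not uniform within a group. A liver weight was recorded for 7 of the mice (VDS3 to VDS6 and VDD4 to VDD6) and not for the other 5 (VDD1 to VDD3, VDS1 and VDS2), and 306 of 12453 genes (2.46%) differed between these sets at an adjusted p under 0.05 with the diet in the fit. What the record marks is not known. The split was used because it set mice apart in earlier results of these same data, so the 306 genes are no separate support for it. The diets were also compared within each set. Hepatocyte markers were high in all libraries. The kidney tubule markers Slc5a2 and Umod were at 0 in every library, and Aqp1, which blood vessels also express, was the only one of the 6 kidney markers above the filter on low counts. The 6 together summed to 45.0 to 81.3 CPM in VDD-F1 and 53.1 to 88.7 CPM in VDS-F1 mice.

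The promoters of Gc and Vdr are shown because these genes lay near opposite ends of the range of levels described next. RefSeq sequences on GRCm38.p6 were at hand for 9 of the 10 genes (all but Cyp24a1) and run from 250 bases before the start of transcription to 50 bases after it. The Gc promoter lies at chr5:89457849-89458148 on the minus strand and holds 40.3% G and C, where the median of 32851 promoters was 52.7%. Capitals mark GTTAATNAT, part of the site of hepatocyte nuclear factor 1, a factor that many liver genes use. It was searched on both strands and found in 0.801% of all promoters.
Gc: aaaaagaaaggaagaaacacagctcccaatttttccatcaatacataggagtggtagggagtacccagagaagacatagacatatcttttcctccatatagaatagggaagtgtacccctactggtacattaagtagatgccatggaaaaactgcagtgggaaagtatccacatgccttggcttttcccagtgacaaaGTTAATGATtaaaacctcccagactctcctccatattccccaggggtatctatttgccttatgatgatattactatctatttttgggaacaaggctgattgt

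The Vdr promoter lies at chr15:97908247-97908546 on the minus strand and holds 61.3% G and C. Capitals mark GGGCGG, the GC box, which occurs 3 times here and in 35.7% of all promoters on either strand. GTTAATNAT was not among its letters, nor among those of the promoters of the other members apart from Gc.
Vdr: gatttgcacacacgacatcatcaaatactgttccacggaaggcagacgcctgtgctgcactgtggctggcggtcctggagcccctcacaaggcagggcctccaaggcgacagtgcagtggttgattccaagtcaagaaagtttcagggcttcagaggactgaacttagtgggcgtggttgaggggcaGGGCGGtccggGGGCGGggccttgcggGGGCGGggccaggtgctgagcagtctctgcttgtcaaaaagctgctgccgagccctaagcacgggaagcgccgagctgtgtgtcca

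Gc belongs to the albumin gene family, whose other members Alb, Afp and Afm lie on the same chromosome further along. Each of these 3 promoters also holds GTTAATNAT, in the same orientation as the gene. The stretches around it are set side by side, with the match to GTTAATNAT in capitals (the letter at N differs between them), from chr5:89457926-89457965 (Gc, minus strand), chr5:90460823-90460862 (Alb, plus strand), chr5:90490594-90490633 (Afp, plus strand) and chr5:90518796-90518835 (Afm, plus strand). The letters outside the capitals were not compared, and a match does not show that a factor binds.
Gc: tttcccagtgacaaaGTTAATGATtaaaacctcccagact
Alb: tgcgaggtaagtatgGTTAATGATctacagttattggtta
Afp: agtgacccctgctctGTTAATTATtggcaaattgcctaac
Afm: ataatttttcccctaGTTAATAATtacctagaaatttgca

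The levels of the 10 genes ran from 0 to 2937 CPM per kilobase of exon, the scale on which different genes can be set side by side. Gc was highest, with a mean level of 2684 CPM per kb. Pdia3 (129), Rxra (95.7), Dhcr7 (26.8) and Cyp2r1 (6.12 CPM per kb) followed, and Lrp2 was far below them at 0.166 CPM per kb. Cyp27b1 and Vdr were seen as stray counts in 4 mice each, and Cyp24a1 and Cubn had a count of 0 in all 12 livers. Between neighbours in this order the ranges over the 12 mice did not overlap for Gc and Pdia3, Rxra and Dhcr7, Dhcr7 and Cyp2r1, or Cyp2r1 and Lrp2. They overlapped for Pdia3 and Rxra, and from Lrp2 downwards. The plot of levels per length shows this order for every mouse.

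**Figure D1:**
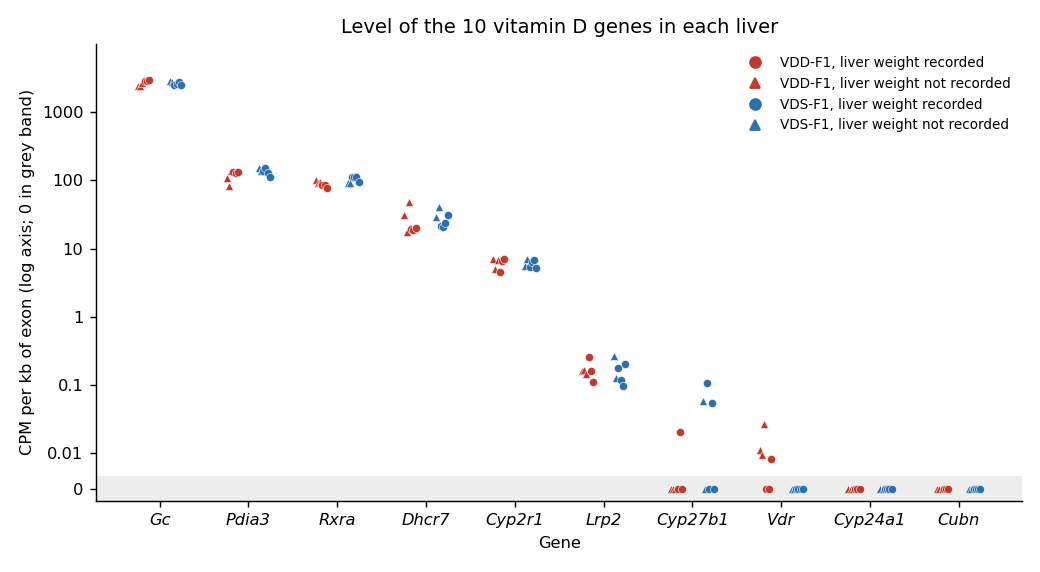
Level of the 10 genes in each of the 12 livers, in CPM per kb of exon on a log axis, with values of 0 drawn in the grey band. Red symbols are VDD-F1 and blue symbols VDS-F1 mice, circles are mice with a recorded liver weight and triangles mice without. Gc lies at 2389 to 2937 CPM per kb and Cyp24a1 and Cubn at 0 in every mouse.

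Of the 10 genes, 6 (Gc, Cyp2r1, Dhcr7, Rxra, Pdia3 and Lrp2) had a mean count of at least 12 and entered the test across 12453 genes. None differed between VDD-F1 and VDS-F1 mice at an adjusted p under 0.05 in edgeR's quasi-likelihood test, where 5 of all genes tested (0.0402%) did. None had an unadjusted p under 0.05 either, where 9.55% of all genes were higher and 6.29% lower in VDD-F1 mice at that level. By DESeq2 and by voom the number with an adjusted p under 0.05 was also 0, and the number with an unadjusted p under 0.05 was 1, which was Rxra. Over all genes 4.05% passed after adjustment by DESeq2 and 4.74% by voom, and 16.7% and 22.8% had an unadjusted p under 0.05. In 0 of the 6 genes did the CPM of the groups fail to overlap, beside 1.18% of all genes. The other 4 genes, Vdr, Cyp27b1, Cyp24a1 and Cubn, had too few counts for this test and are given by their counts.

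Gc, on the minus strand at chr5:89417522-89457898, took between 0.428% and 0.565% of all counts on genes in each liver. In VDD-F1 mice its level was 4522, 4408, 5010, 5373, 5376 and 5420 CPM (VDD1 to VDD6). In VDS-F1 mice it was 5237, 5041, 4595, 4804, 5051 and 4594 CPM (VDS1 to VDS6). The groups overlapped, and the highest liver exceeded the lowest 1.23-fold, the smallest spread among the 6 genes. The log2-fold change in VDD-F1 was 0.038 (95% confidence interval -0.17 to 0.25, adjusted p = 0.897, edgeR). The 3 highest VDD-F1 livers, VDD4 to VDD6, were those with a recorded weight, and they lay above all 4 VDS-F1 livers of that set. Within that set the log2-fold change of Gc was 0.18 (0.0079 to 0.35), with an edgeR adjusted p of 0.177. Among the mice without a record it was -0.14 (-0.62 to 0.33). The difference between these values did not pass the test, with an edgeR adjusted p of 0.581.

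Alb, the gene of serum albumin and the neighbour of Gc by family, had a mean level of 67825 CPM and a log2-fold change of 0.24 (-0.032 to 0.51, adjusted p = 0.379). In mice with a recorded weight the log2-fold change of Alb was 0.36 (adjusted p = 0.0144, edgeR). Afp, which encodes the fetal albumin, was below 1 CPM in 11 livers and at 28.9 CPM in VDS6. Its log2-fold change of -3.11 (adjusted p = 0.206, edgeR) rests on that liver, and without VDS6 the gene was under the filter. None of the 3 other genes of the family passed in edgeR's test over the 12 mice, and Alb passed by voom (adjusted p = 0.0491).

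Cyp2r1, the main hydroxylase of vitamin D in the liver, lies on the minus strand at chr7:114549682-114562972. Its level was 15.1, 10.4, 14.4, 9.68, 14.0 and 14.8 CPM in VDD1 to VDD6. It was 11.8, 15.05, 11.3, 13.3, 14.6 and 10.8 CPM in VDS1 to VDS6. Both groups ran over nearly the same range, from counts of 141 to 318 per library. The log2-fold change was 0.027 (-0.26 to 0.32, adjusted p = 0.951, edgeR). The direction turned with the mice that were left out, as the limits at the end describe.

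Cyp27a1, a mitochondrial sterol hydroxylase that can also hydroxylate vitamin D, was set beside Cyp2r1 for its role. Its level was 423, 193, 427, 306, 318 and 293 CPM in VDD-F1 mice and 464, 400, 454, 442, 473 and 446 CPM in VDS-F1 mice. The VDD-F1 livers VDD2 and VDD4 to VDD6 lay below all VDS-F1 livers, and VDD1 and VDD3 lay within their range. The log2-fold change was -0.45 (SE 0.16), with an unadjusted p of 0.0119 and an adjusted p of 0.188 by edgeR, which did not pass. In the recorded set the log2-fold change was -0.57 with an adjusted p of 0.000800, and in the other mice it was -0.31 with an adjusted p of 0.9998, both by edgeR. The difference between the sets was not past the threshold (adjusted p = 0.895, edgeR). Of the electron donors that these enzymes need, Fdx1 (adrenodoxin) had a log2-fold change of -0.20 and an adjusted p of 0.383, and none of the 4 genes in that list passed.

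Rxra, on the plus strand at chr2:27676440-27762957, encodes the retinoid X receptor that pairs with the vitamin D receptor and with many other nuclear receptors of the liver. Its level was 548, 499, 513, 475, 462 and 416 CPM in VDD1 to VDD6 and 500, 502, 602, 619, 620 and 514 CPM in VDS1 to VDS6. The VDD-F1 mean was 485 ± 45.6 CPM and the VDS-F1 mean 560 ± 59.9 CPM (SD, n = 6 each). The groups overlapped through VDD1 and VDD3. The log2-fold change was -0.20 (SE 0.10, -0.41 to 0.0022), with an unadjusted p of 0.0522 and an adjusted p of 0.320 by edgeR. In the exact two-sided permutation test of the mean log2 CPM over 924 splits, Rxra had p = 0.0455, not adjusted for the 8 genes so tested, and p = 0.0541 with DESeq2's size factors. That p rose to between 0.0519 and 0.0909 when any of VDD2 to VDD6 or VDS3 to VDS5 was left out, and it was between 0.0173 and 0.0433 without VDD1, VDS1, VDS2 or VDS6.

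The Rxra levels of the groups lay apart in the mice with a recorded liver weight. There the 3 VDD-F1 livers had 416 to 475 CPM and the 4 VDS-F1 livers 514 to 620 CPM, without overlap. Gc and Dhcr7 did not overlap there either, and neither did 23.4% of all genes tested there. The log2-fold change in that set was -0.38 (-0.59 to -0.18), with an edgeR adjusted p of 0.0227, where 5.11% of all genes were lower at this threshold. The exact permutation test gave p = 0.0571 in that set, the smallest that 3 against 4 mice allow. In the mice without a record the log2-fold change was 0.055 (-0.34 to 0.45). The difference between the sets in the diet's effect was -0.44 on the log2 scale, with an unadjusted p of 0.0181 and an adjusted p of 0.426 by edgeR. It was the only one of the 6 genes at an unadjusted p under 0.05 in that test, where 9.01% of all genes were, and none of the 6 passed after adjustment, where 0.0883% of all genes did. By DESeq2's Wald test Rxra (0.00333) and Gc (0.00891) had an unadjusted p under 0.05 for this difference. Their adjusted p values by DESeq2 were 0.149 and 0.247, where 1.11% of all genes passed.

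**Figure D2:**
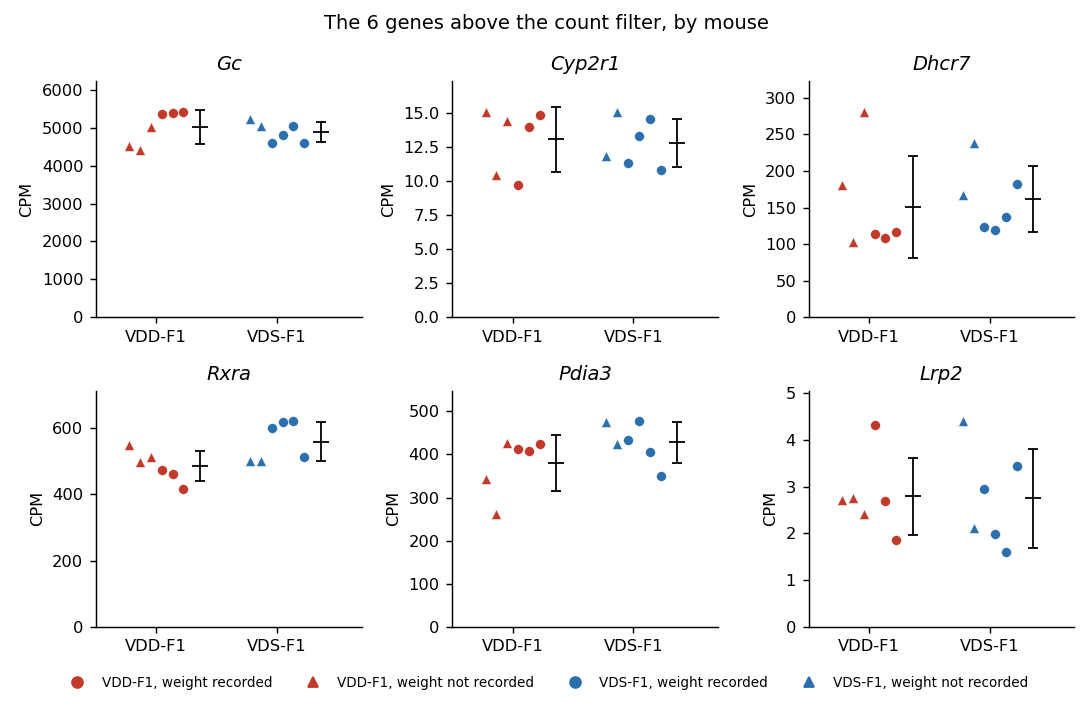
CPM of the 6 genes above the filter in each mouse, on axes that start at 0, with VDD-F1 in red and VDS-F1 in blue, circles for mice with a recorded liver weight and triangles for mice without. Black bars give the mean and SD of 6 mice. The groups overlap in all 6 genes, and the Rxra circles of VDD-F1 (416 to 475 CPM) lie below those of VDS-F1 (514 to 620 CPM).

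Vdr, the receptor itself, lies on the minus strand at chr15:97854425-97910630. VDD1 to VDD6 had 1, 1, 2, 0, 0 and 1 counts, and all 6 VDS-F1 mice had 0. The VDD-F1 livers together had 5 counts among 101265482, or 0.0494 CPM (95% Poisson interval 0.0160 to 0.115). In the VDS-F1 livers 0 counts among 100959946 allow a level of up to 0.0297 CPM by the limit of 3 counts. On the 95% Poisson interval used for VDD-F1 the upper end is 0.0365 CPM. No library was above the limit of 3 counts. In the exact permutation test Vdr had p = 0.0606, and with each mouse left out the p ran from 0.0303 (without VDD4 or VDD5, which had no count) to 0.121 (without VDD1, VDD2, VDD3 or VDD6). All mice with a count were VDD-F1, and each p was the smallest that so few mice with counts allow. The test on all mice could therefore not reach 0.05, and these p values say nothing about the diets. Whether Vdr differed could not be decided at this depth, and the receptor was close to the limit of detection in whole liver from either group.

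The genes that act with the receptor were all present. All 12 genes of the list of other retinoid X receptors and coregulators passed the filter, and 0 passed the test. All 12 fold changes were below 0, with a median log2-fold change of -0.092 and a range of -0.21 to -0.022, where the median over all genes tested was 0.0041 and 6124 of 12453 were below 0. With DESeq2's size factors the number below 0 was again 12, and it was 11 in mice with a recorded weight and 8 in mice without. Med1, a Mediator subunit that binds nuclear receptors, had a log2-fold change of -0.21 (adjusted p = 0.266), and Ncor1, a corepressor, of -0.21 (adjusted p = 0.331). In VDS-F1 mice Med1 and Ncor1 were lowest in VDS2, at 42.2 and 148 CPM, and the other 5 VDS-F1 livers lay at 53.2 to 57.5 and 175 to 182 CPM.

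Of 24 genes listed as targets of the vitamin D receptor, 12 were above the filter and 12 were not. The list was not limited to targets in mouse liver and sets no expected direction for its genes. Among the 12 below it were genes of calcium and phosphate transport in gut and kidney. None of the 12 tested passed, and 3 were higher and 1 lower at an unadjusted p under 0.05, where 9.55% and 6.29% of all genes were. Their median log2-fold change was 0.21, and on the same 12 genes it was 0.017 in mice with a recorded weight and 0.61 in mice without. Cdkn1a, which encodes the cell cycle inhibitor p21 and is also driven by other factors such as p53, had the smallest p. Its level was 43.4, 21.7, 24.8, 18.1, 50.1 and 23.4 CPM in VDD-F1 mice and 12.1, 19.2, 7.08, 8.27, 3.75 and 14.0 CPM in VDS-F1 mice. Only VDD4, at 18.1 CPM, fell below the highest VDS-F1 liver, VDS2. The log2-fold change of Cdkn1a was 1.49 (SE 0.35) with an edgeR adjusted p of 0.0855, and over the alternatives the adjusted p ran from 0.00160 (DESeq2's Wald test) to 0.9998 (mice without a recorded weight). Slc34a2, a phosphate transporter, had a log2-fold change of -1.99 (adjusted p = 0.180, edgeR) that rests on VDS1 (9.87 CPM), and without that mouse it was -0.97.

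Dhcr7, on the plus strand at chr7:143823145-143848410, varied more between mice than the other genes tested except Lrp2. Its level was 181, 103, 281, 114, 108 and 116 CPM in VDD1 to VDD6 and 167, 239, 124, 119, 137 and 182 CPM in VDS1 to VDS6. VDD3 and VDS2 were the highest livers of their groups, and the highest liver exceeded the lowest 2.73-fold, where for Lrp2 this was 2.75-fold. The log2-fold change between the diets was -0.099 (-0.64 to 0.44, adjusted p = 0.893, edgeR), and it was 0.047 without VDS2. In mice with a recorded weight it was -0.31 (-0.61 to -0.023), with an unadjusted p of 0.0369 and an adjusted p of 0.164 by edgeR, where 25.6% of all genes had an unadjusted p under 0.05. There the VDD-F1 livers, at 108 to 116 CPM, lay below the VDS-F1 livers, at 119 to 182 CPM, and the exact permutation test gave 0.0571, the smallest p possible. Between the sets, livers with a recorded weight had a mean of 128 ± 25.3 CPM (SD, n = 7) and the others 194 ± 68.4 CPM (SD, n = 5). The log2 difference was -0.64 (SE 0.20), with an unadjusted p of 0.00646 and an adjusted p of 0.133 by edgeR. By DESeq2 the adjusted p was 0.0341, where 4.67% of all genes passed, and by edgeR with all genes of any count it was 0.00301, where 2.24% passed. Dhcr7 was the only one of the 6 genes at an unadjusted p under 0.05 in that comparison, where 13.9% of all genes were.

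The other enzymes of late sterol synthesis were set beside Dhcr7 in each liver. Their median and Dhcr7 lay on the same side of their own means in 9 of 12 livers, and on opposite sides in VDD6, VDS1 and VDS5, with no test of this agreement. In VDD3 and in VDS2 all 10 of them were above their mean over the 12 mice, with a median deviation of 0.91 and 0.34 on the log2 scale, beside 0.93 and 0.69 for Dhcr7. In VDD2 only 1 of the 10 was above its mean, with a median of -0.85, beside -0.52 for Dhcr7. None of the 10 passed the test between the diets. Their median log2-fold change was -0.023, and over the alternatives it ran from -0.25 in mice with a recorded weight to 0.045 in mice without. Lbr, a sterol reductase of the nuclear envelope, had a log2-fold change of 0.21 (adjusted p = 0.480, edgeR).

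**Figure D3:**
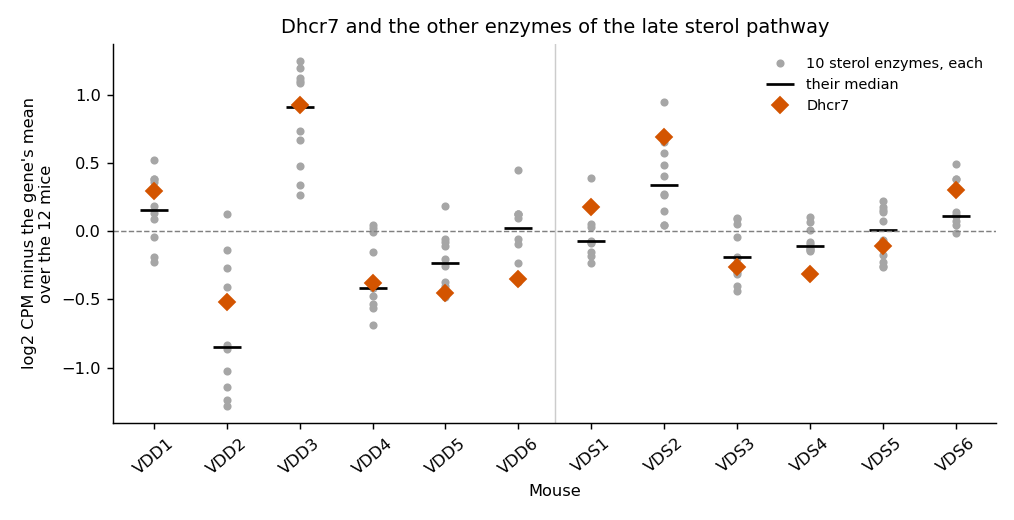
Log2 CPM of Dhcr7 (orange) and of 10 other sterol enzymes (grey, with their median as a black bar) in each mouse, each gene minus its own mean over the 12 mice. Dhcr7 is highest in VDD3 (0.93) and lowest in VDD2 (-0.52), the mice in which the median of the other enzymes is also highest (0.91) and lowest (-0.85).

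Pdia3, on the plus strand at chr2:121413775-121438687, had 343, 262, 426, 413, 408 and 423 CPM in VDD1 to VDD6 and 476, 425, 435, 477, 406 and 350 CPM in VDS1 to VDS6. VDD1 and VDD2 were the lowest livers of all 12, and the other 4 VDD-F1 livers lay within the VDS-F1 range. The log2-fold change was -0.17 (-0.44 to 0.093, adjusted p = 0.528, edgeR), and it was -0.087 without VDD2. It was -0.0048 (-0.23 to 0.22) in mice with a recorded weight and -0.39 (-0.95 to 0.16) in the others. Pdia3 shares 18 bases of exon with Catsper2 on the opposite strand, which the stranded count keeps apart. Of 10 genes for its folding partners in the endoplasmic reticulum, 0 passed and 9 had a fold change below 0, with a median log2-fold change of -0.14. The number below 0 was 7 in mice with a recorded weight (median -0.066) and 9 in mice without (median -0.30). Ero1lb, an oxidase that acts on disulfide isomerases, had -0.43 (adjusted p = 0.309) and Uggt1, which returns glycoproteins to the folding cycle, had -0.23 (adjusted p = 0.315).

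Lrp2, the gene of megalin, lies on the minus strand at chr2:69424340-69586065 and had 23 to 89 counts per library. In VDD-F1 mice this was 2.71, 2.77, 2.41, 4.33, 2.68 and 1.87 CPM, and in VDS-F1 mice 4.39, 2.12, 2.96, 1.98, 1.597 and 3.43 CPM. The log2-fold change was 0.017 (-0.56 to 0.60, adjusted p = 0.987, edgeR), with the widest interval of the 6 genes. Cubn, the gene of its partner cubilin on the minus strand at chr2:13276338-13491813, had 0 counts in every mouse, which allows up to 0.0148 CPM over the 12 libraries. On the other strand 22 counts fell within Cubn, in 9 mice. There 368 of its exonic bases overlap Gm13270, a noncoding transcript of the opposite strand.

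Of the 6 genes that work with these receptors, 5 were above the filter and 0 passed. Lrp1, the large related receptor of hepatocytes, had a log2-fold change of -0.23 (adjusted p = 0.340), and of -0.42 (adjusted p = 0.00937, edgeR) in mice with a recorded weight. Clcn5, an endosomal chloride transporter, had 0.20 (adjusted p = 0.333). The mean level was 1987 CPM for Lrp1 and 13.4 CPM for Clcn5.

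Cyp27b1, which makes the active hormone, lies on the plus strand at chr10:127048250-127053006. VDD5 had 1 count and the other VDD-F1 mice 0. VDS1 had 3, VDS3 had 4 and VDS5 had 2 counts, and the other 3 VDS-F1 mice had 0. Summed over mice this was 0.00988 CPM in VDD-F1 (95% Poisson interval 0.000250 to 0.0550) and 0.0891 CPM in VDS-F1 (0.0408 to 0.169). The intervals overlap, and 1 library, VDS3, was above the limit of 3 counts. The exact permutation test gave p = 0.182, and edgeR without the filter gave an unadjusted p of 0.0425 and an adjusted p of 0.370. With counts in only 4 of the 12 mice the permutation test could not reach 0.05, so it cannot decide whether Cyp27b1 differed. Cyp24a1, which inactivates the hormone and is the best known target of the receptor, lies on the minus strand at chr2:170482708-170497145. It had 0 counts on either strand in all 12 livers, which allows up to 0.0148 CPM over the 12 libraries.

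**Figure D4:**
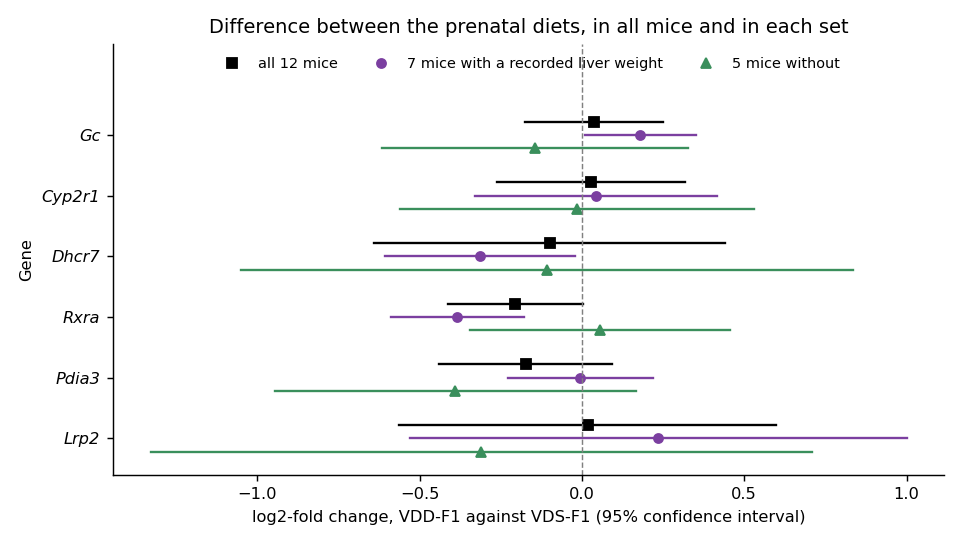
Log2-fold change in VDD-F1 against VDS-F1 for the 6 genes above the filter, with 95% confidence intervals from edgeR, in all 12 mice (black), in the 7 mice with a recorded liver weight (purple) and in the 5 without (green). The Rxra interval in the recorded set runs from -0.59 to -0.18, and in the mice without a record from -0.34 to 0.45.

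Over the 7 other lists together, 56 of 69 genes were tested and 0 passed an adjusted p under 0.05 by edgeR. At an unadjusted p under 0.05, 4 were higher and 6 lower in VDD-F1 mice, where 9.55% and 6.29% of all genes were. Their median log2-fold change was -0.070, and that of the 6 vitamin D genes was -0.041. DESeq2 called 2 of the 56 (Cdkn1a and Slc34a2) and voom called 3 (Alb, Cdkn1a and Cyp27a1), shares near the 4.05% and 4.74% of all genes. In mice with a recorded weight edgeR called 7 of the 56, where 5.87% of all genes were called higher and 5.11% lower. These were Cyp27a1, Cdkn1a, Alb, Lrp1 and Ero1lb, and also Hsd17b7 (-0.58) and Spp1 (0.99 on the log2 scale), which were named after their values had been seen. Between the sets of mice, 2 of the genes listed as targets of the receptor passed at an adjusted p under 0.05, where 2.46% of all genes did. These were named after their values had been seen. Cyp3a11, a hepatic drug-metabolizing enzyme, was higher by 2.30 on the log2 scale in mice with a recorded weight (adjusted p = 0.000443, edgeR), and Cldn2, a tight junction protein, had a log2 difference of -0.79 (adjusted p = 0.00228, edgeR).

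**Figure D5:**
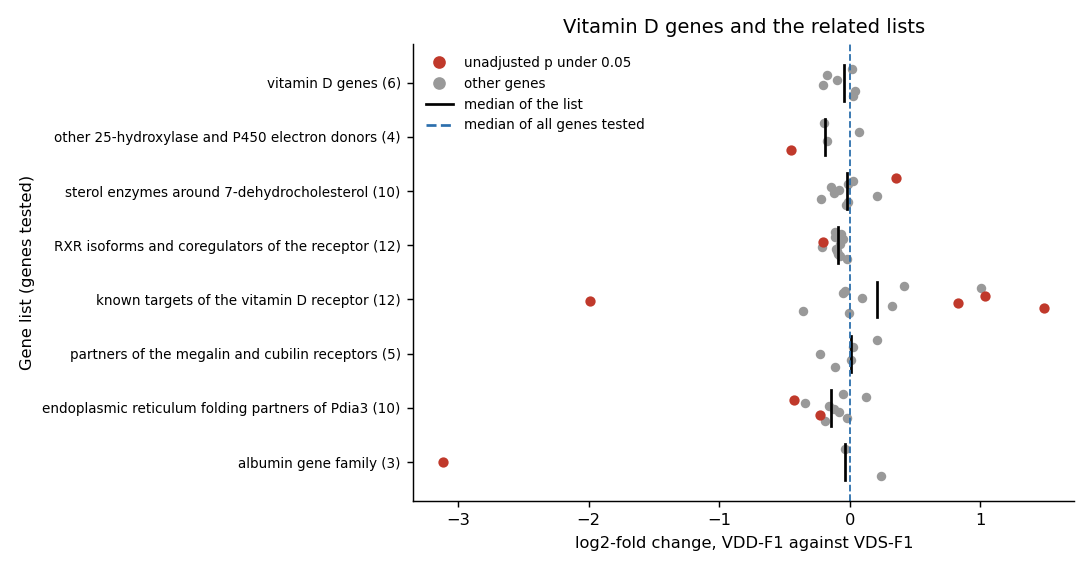
Log2-fold change in VDD-F1 against VDS-F1 for each gene tested, by list, with the number tested in brackets. Red points have an unadjusted p under 0.05, black bars are the median of a list and the dashed line is the median of all 12453 genes (0.0041). The outlying points are Afp (-3.11), Slc34a2 (-1.99) and Cdkn1a (1.49).

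Markers of other liver cells are given beside these results. The summed level of 6 stellate cell markers was 284 to 849 CPM in VDD-F1 and 266 to 421 CPM in VDS-F1 mice, and 3 of the 6 were higher at an unadjusted p under 0.05, where 9.55% of all genes were higher and 6.29% lower. For 5 cholangiocyte markers the ranges were 14.6 to 49.0 and 14.9 to 26.8 CPM, with 2 of the 4 tested higher. For 5 Kupffer cell markers they were 73.7 to 213 and 116 to 230 CPM, with 2 lower. For 5 endothelial markers they were 177 to 210 and 172 to 233 CPM, with 1 higher and 2 lower. Lymphocyte markers stayed at 0.301 to 7.10 and 1.38 to 2.83 CPM, and hepatocyte markers at 89807 to 109337 and 79658 to 96642 CPM, with 1 of 6 lower. None of these markers passed an adjusted p under 0.05 by edgeR over the 12 mice. Their part in the values of Rxra, Cyp27a1 and Cdkn1a was not tested, and in whole liver fewer cells of a type and less RNA per cell cannot be told apart.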

How the data were processed

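RNA-seq of rRNA-depleted, stranded libraries from 12 livers was analysed. Per the labels and the study's methods, the authors aligned reads with STAR to GRCm38 (mm10) with GENCODE M15 and deposited fragment counts per gene, not normalized, in 3 columns (strand ignored, forward and reverse). The reverse-strand column was used, since it held 92.7% to 95.8% of the stranded counts; the strand setting is not named in the sources used here. Positions and exonic lengths came from GENCODE M21, in which 52403 of 52636 genes matched. Library totals are given in the text and set the precision of low counts.

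The test, on genes whose mean count reached 12, was run with edgeR 4.0.16 (TMM, quasi-likelihood F test, legacy form) in R 4.3.3, with Benjamini-Hochberg adjustment over 12453 genes, where the study's methods name DESeq2. CPM uses TMM library sizes, and mean log2 CPM (prior count 2) was compared by exact permutation. Alternatives were DESeq2 1.42.0, DESeq2's size factors, a robust edgeR fit, voom (limma 3.58.1, sample weights), a total count of 12 or any count as the filter, no strand, leaving out each mouse, fitting each set by itself, the set as a term and a replicate block. The newer form of edgeR was added after the data had been seen. The code was tested on simulated data. Python 3.11.15 and matplotlib 3.10.9 were used for the rest. Which mice have a recorded liver weight was read from the study's supplementary histology, matched by group and number.

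The 10 genes, the lists and the split by recorded liver weight were chosen with earlier results of these data known. From each other list the 2 genes with the smallest p and any gene passing the test are named, besides Cyp27a1 and Alb, except for 1 gene that is not reported here. The replicates are separate mice. Numbers 1 to 6 mark different mice in each group and do not pair them.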

Additional observations from a re-analysis of the deposited data

Results flagged for a closer look

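For normally distributed values, chance sets apart about 1 in 20 groups by the rule used for single mice far from the other 5 of their group (Dixon's ratio at the 95% level). Among the genes above the filter on low counts 7 of 40 were so set apart. These shares cannot be compared, since CPM was not transformed and most genes of the other lists were named for a small p. Among the vitamin D genes the rule named Lrp2 in VDD4, at 4.33 CPM against 1.87 to 2.77 CPM in the other VDD-F1 mice, and Cyp27b1 in VDD5, at 0.0526 CPM against 0. The latter is a single count, and with the other 5 mice at 0 any count is set apart by this rule, so that it carries no information; it is not among the 7. Among the genes of the other lists, VDS2 was low for Med1 (42.2 CPM against 53.2 to 57.5), Ncor1 (148 CPM against 175 to 182) and Lrp1 (1932 CPM against 2137 to 2254). VDS5 was high for Fdx1 (81.5 CPM against 57.3 to 64.2). VDS1 was high for Slc34a2 (9.87 CPM against 0.417 to 3.08). VDS6 was high for Afp (28.9 CPM against 0.344 to 0.826), and VDS6 was also the library with the largest share of fragments outside annotated genes, 11.1%.

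The strand not used in the comparisons held few counts in the vitamin D genes, and VDD5 had the highest share in the 4 genes with at least 10 such counts in a library. Of the stranded counts in VDD5, 0.868% of Gc, 1.10% of Rxra, 0.484% of Dhcr7 and 0.969% of Pdia3 were on the forward strand. The next highest VDD-F1 mouse had 0.308% (VDD1), 0.632% (VDD4), 0.152% (VDD2) and 0.367% (VDD1), and the highest shares in VDS-F1 mice were 0.121%, 0.432%, 0.131% and 0.0855%. No fold change of these genes turned when strand was ignored.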

How the results depend on the processing

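Of 240 fold changes (20 genes under 12 settings), 235 kept their direction. The 5 that turned did so in mice without a recorded liver weight: Cyp2r1 -0.015, Gc -0.14, Rxra 0.055, Lrp2 -0.31 and Lbr -0.032 (log2). In the recorded set 1 vitamin D gene (Rxra) passed an adjusted p under 0.05, 3 (Rxra, Gc and Dhcr7) had an unadjusted p under 0.05, and 7 of 56 genes of the other lists passed, where 5.87% of all genes passed as higher, 5.11% as lower, and 25.6% had an unadjusted p under 0.05. The number with an unadjusted p under 0.05 was 1 by DESeq2 (16.7% of all genes), by voom (22.8%) and in the newer form of edgeR (16.3%). It was 2 (Vdr and Cyp27b1) with all genes of any count, where 3208 of 24759 genes were; Vdr, at 0 in all VDS-F1 mice, entered that fit through VDD-F1 alone, so its p there says nothing. Genes of the other lists that passed numbered 2 by DESeq2, 3 by voom and 1 with all genes of any count. Between the sets 1 vitamin D gene (Dhcr7) passed by DESeq2 (4.67% of all genes) and 1, also Dhcr7, with all genes of any count (2.24%). The permutation test had 1 gene (Rxra) under 0.05, and 0 with DESeq2's size factors, without strand and within each set, where fewer mice set a higher smallest p. The cause of the other changes was not tested.

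With each mouse left out, the vitamin D genes that passed stayed at 0, and those with an unadjusted p under 0.05 numbered 0 to 1, as did those that passed between the sets and those in the permutation test. Without VDD4 or VDD5 the gene in the permutation test was Vdr, with counts in VDD-F1 mice alone, so its p says nothing. The fold change ranged from -0.018 to 0.10 for Cyp2r1, -0.37 to 0.047 for Dhcr7, -0.15 to 0.21 for Lrp2, -0.23 to -0.087 (without VDD2) for Pdia3 and -0.24 to -0.16 for Rxra. The direction turned without VDD1, VDD3, VDD6, VDS3 or VDS6 for Cyp2r1, without VDS2 for Dhcr7, and without VDD4, VDS2, VDS4 or VDS5 for Lrp2. Afp could not be fitted without VDS6. Over all genes, 5 passed in the fit reported, 504 by DESeq2, 590 by voom, 1358 in the recorded set, 0 in the other mice, 85 with all genes of any count, 28 with the set as a term, 20 in the newer form and 2 in the robust fit. Leaving out a mouse gave 0 to 420 such genes (420 without VDD1).

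Mice with the same number were not paired: their deviations correlated at -0.08 to 0.10. With a replicate block 0 vitamin D genes passed, the log2-fold change of Rxra was -0.20 (edgeR adjusted p = 0.402), and 19 genes passed in all. Depth limits Vdr, Cyp27b1, Cyp24a1 and Cubn, which had at most 4 counts in a library.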
